A study of Mus musculus with 3 samples.

Results

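The AP2 adaptor and clathrin genes are 8 genes, chosen by symbol, that encode the coat of clathrin-coated vesicles at the plasma membrane. They are the AP2 subunit genes *Ap2a1*, *Ap2a2*, *Ap2b1*, *Ap2m1* and *Ap2s1* and the clathrin genes *Clta*, *Cltb* and *Cltc*, and all 8 are among the 14933 genes of the table of filtered cells. The study examined what loss of *Tbr1*, a T-box transcription factor, does to gene expression in layer 5 neurons of the medial prefrontal cortex (mPFC) at postnatal day (P) 5. tdTomato-positive cells were purified by FACS from papain-dissociated tissue, captured with a 10X kit that counts the 3′ ends of transcripts as unique molecular identifiers (UMIs), and sequenced as 1 library per genotype. The wild-type library (Rbp4cre::tdTomato), the *Tbr1* layer5 heterozygous library (Tbr1f/+::Rbp4cre::tdTomato) and the *Tbr1* layer5 homozygous library (Tbr1f/f::Rbp4cre::tdTomato) come from C57Bl6 mice, and all 3 carry *Rbp4-cre*, a BAC transgene active in layer 5 projection neurons, with the Cre-dependent tdTomato reporter Ai14. Cre removes exons 2 and 3 of the floxed *Tbr1* allele in those neurons, and the number of mice pooled in a library is not given in the sources used here.

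The cells fall into 3 classes by the lists of the authors. Typical neuronal cells are those they kept for their comparison of genotypes (1778 wild-type, 5357 heterozygous and 3935 homozygous cells). Atypical neuronal cells are in their neuronal table but were left out of that comparison (304, 107 and 462 cells in the same order), and outside cells passed their quality limits but are not in the neuronal table (2873, 1398 and 1182 cells). Levels are UMIs of a gene per 1000000 UMIs (CPM) summed over the cells of a class. Intervals are 95%, exact Poisson for a level and exact conditional binomial for a ratio or share, and they cover counting error only. Cells of 1 library are not replicates of a genotype, so the genotypes are compared by size alone: a difference past its interval exceeds counting error between these libraries, with no replicate check.

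Clathrin-mediated endocytosis is a main route by which neurons take membrane and receptors back from the cell surface and rebuild synaptic vesicles after release. The AP2 complex is a tetramer of an alpha subunit, made from either *Ap2a1* or *Ap2a2*, the beta2 subunit (*Ap2b1*), the mu2 subunit (*Ap2m1*) and the small sigma2 subunit (*Ap2s1*). It binds phosphoinositides of the plasma membrane and sorting signals in the tails of cargo proteins, and it recruits clathrin, whose heavy chain (*Cltc*) forms triskelia that carry light chains from *Clta* or *Cltb*.

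The 8 genes lie at separate places in the genome (GRCm38, the assembly called mm10 by the authors, GENCODE release M21). *Ap2s1* (ENSMUSG00000008036) is at chr7:16738410-16749294 on the plus strand, *Ap2a1* (ENSMUSG00000060279) at chr7:44900373-44929496 on the minus strand, and *Ap2a2* (ENSMUSG00000002957) at chr7:141562173-141633011 on the plus strand. *Ap2b1* (ENSMUSG00000035152) is at chr11:83299024-83405035 on the plus strand and *Ap2m1* (ENSMUSG00000022841) at chr16:20535478-20544909 on the plus strand. *Clta* (ENSMUSG00000028478) is at chr4:44004452-44032846 on the plus strand, *Cltb* (ENSMUSG00000047547) at chr13:54592401-54611344 on the minus strand, and *Cltc* (ENSMUSG00000047126) at chr11:86694351-86757565 on the minus strand. Of stretches of 90 bases within 500 bases of the 3′ ends of their protein-coding transcripts, none of those of 7 genes occurs in a transcript of another gene. For *Ap2m1*, 247 of 1233 stretches also occur in *Gm13509*, *Gm18646*, *AC111023.1* or *Zup1*, so its UMIs are less certain than those of the other members.

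RefSeq start sites gave 9 promoter windows for the 8 genes (250 bases before to 50 after the start, GRCm38.p6), with 2 windows for *Clta*. Sequence upstream of *Clta* and *Cltb* is shown because the balance of these light chain genes differed between the wild-type and both mutant libraries in every class, and that of *Ap2s1* because it was among the members with a larger share of UMIs in typical neurons than in outside cells in every library. Each runs 5′ to 3′ on the strand of the gene and stops before the first annotated exon. The other *Clta* window begins in an annotated exon, so none of it is shown. Which *Clta* start these cells use was not tested. Capitals mark matches, on either strand, to the cAMP response element TGACGTCA or the GC box GGGCGG.
*Clta*, chr4:44004193-44004442, plus strand: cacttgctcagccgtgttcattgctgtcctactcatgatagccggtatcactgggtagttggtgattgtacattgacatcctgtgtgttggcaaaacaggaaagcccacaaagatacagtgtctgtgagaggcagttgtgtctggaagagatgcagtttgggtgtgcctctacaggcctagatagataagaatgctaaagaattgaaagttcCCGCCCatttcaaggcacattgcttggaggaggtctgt
*Cltb*, chr13:54611374-54611623, minus strand: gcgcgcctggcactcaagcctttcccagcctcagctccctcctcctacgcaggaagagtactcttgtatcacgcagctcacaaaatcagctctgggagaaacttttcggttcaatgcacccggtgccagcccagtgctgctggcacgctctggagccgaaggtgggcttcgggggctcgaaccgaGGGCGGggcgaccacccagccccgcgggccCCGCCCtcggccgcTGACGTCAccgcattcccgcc
*Ap2s1*, chr7:16738194-16738409, plus strand: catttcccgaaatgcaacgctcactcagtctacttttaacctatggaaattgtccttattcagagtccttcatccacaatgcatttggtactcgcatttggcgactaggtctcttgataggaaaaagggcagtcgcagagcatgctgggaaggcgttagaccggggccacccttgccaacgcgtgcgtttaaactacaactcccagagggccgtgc

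The cAMP response element starts 21 bases before the RefSeq start of *Cltb* and 47 bases before that of *Ap2b1*, and it is held by 1.79% of the 32851 windows of all genes. The *Ap2b1* window begins at chr11:83302447, inside the gene as placed above. An annotated exon starts after its first 36 bases, ahead of the element. The GC box is in 7 of the 9 member windows and in 35.7% of all windows. The T-box core GGTGTGA, searched because *Tbr1* encodes a T-box factor, is in none of the 9 and in 3.98% of all windows, which says only that these letters are not in these windows. The *Clta* window printed holds 3 CpG dinucleotides and its other window, at chr4:44012420-44012719, holds 14, against 29 in the *Cltb* window, 16 in that of *Ap2s1* and a median of 7 over all windows.

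In typical cells the excitatory neuron markers (8 of 8 detected in each library) summed to 3542, 4226 and 4981 CPM in the wild-type, heterozygous and homozygous libraries. In the same order, inhibitory neuron markers summed to 344, 257 and 260 CPM. Microglia markers were at 65.7, 41.0 and 44.5 CPM and endothelial cell markers at 111, 33.3 and 55.8 CPM. Layer 5 projection neuron markers, all 6 detected in typical and outside cells, summed to 267 to 286 CPM in typical, 229 to 238 CPM in outside and 305 to 493 CPM in atypical cells (where *Rbp4* was at 0 in the wild-type and *Etv1* at 0 in the heterozygous library), so these markers do not set the typical cells apart. The astrocyte and radial glia list was high in typical cells too, at 7525 to 8603 CPM against 6301 to 6677 CPM in outside cells. *Tbr1* itself had 101, 320 and 136 UMIs (27.5, 30.7 and 22.4 CPM) in wild-type, heterozygous and homozygous typical cells, and since 3′ ends lie outside the deleted exons this does not check the deletion. Typical cells held a median of 1902 wild-type, 1743 heterozygous and 1376 homozygous UMIs, with a median mitochondrial share of 10.4%, 15.4% and 12.5% and ribosomal share of 23.8%, 17.8% and 19.2%. Blood markers were at 345 CPM in the wild-type library against 44.6 and 85.8 CPM in the heterozygous and homozygous libraries. Cell barcodes shared between libraries were few (37 to 58 per pair). How far these differences enter the ratios between genotypes was not tested.

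All 8 members were detected in typical cells of every library, and their levels spanned about an order of magnitude. A 3′ UMI count does not grow with transcript length, so the order below is one of transcripts captured. The mu2 subunit gene *Ap2m1*, whose product reads tyrosine-based sorting signals, led with 512 CPM (490 to 536), 592 (578 to 607) and 612 (593 to 632) in the wild-type, heterozygous and homozygous libraries. The sigma2 gene *Ap2s1* followed with 407 (386 to 428), 386 (374 to 398) and 378 CPM (363 to 394). *Clta* came next, and its wild-type level of 376 CPM (357 to 397) was not separated from that of *Ap2s1* by their intervals. *Cltb* was below these at 208, 230 and 238 CPM. The remaining members were between 54.7 and 133 CPM, with *Ap2a2* above *Ap2b1* in each library, and the intervals of this pair overlapped in the wild-type library. The heavy chain gene *Cltc* and the alpha subunit gene *Ap2a1* were lowest, and their order changed with the library. *Ap2m1* ranked between 260 and 301 among all genes with a UMI, and *Ap2a1* between 1731 and 1825.

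**Figure D1:**
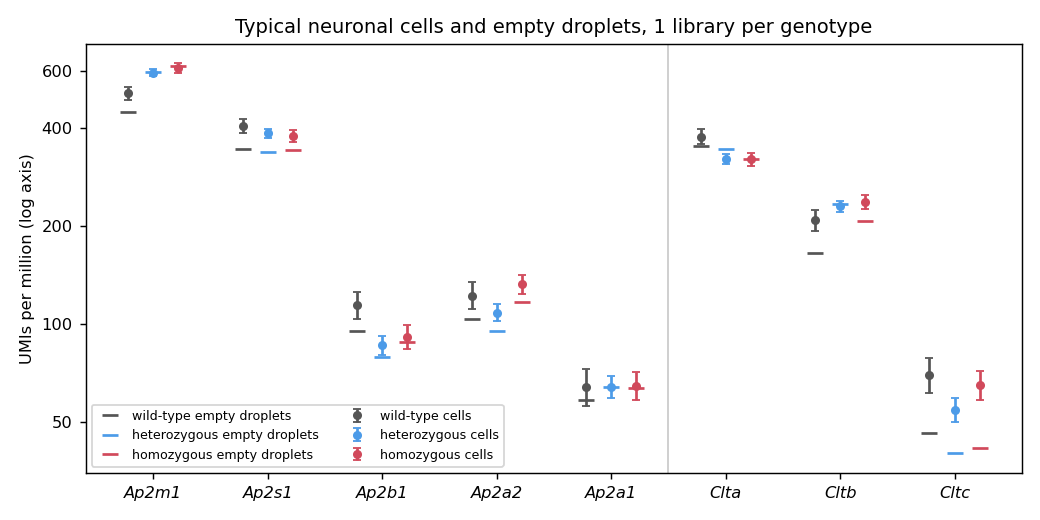
Points give the level of each member in typical neuronal cells in CPM (log axis) with exact Poisson 95% intervals, 1 library per genotype, and dashes give the level in droplets with 100 to 499 UMIs of the same library. *Ap2m1* is lower in the wild-type library in cells and in droplets, at 512 and 447 CPM.

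None of the members differed between genotypes by a large factor. Taking a level more than 25% higher or more than 20% lower (the same fold in either direction) as the rule of size, homozygous over wild-type typical cells had 0 members higher and 1 lower, where 17.2% of the 4261 genes averaging 20 CPM or more were higher and 8.5% lower. The heterozygous over wild-type ratio had 0 members higher and 2 lower, where 17.1% of genes were higher and 9.5% lower. Homozygous over heterozygous cells had none in either direction, where 4.04% of genes were higher and 2.68% lower. The first and second comparison share the wild-type library. The shares over all genes depend on the scaling. With TMM, 12% of genes were higher and 11.4% lower in the first comparison, and 13.7% and 11.8% in the second. The median log2 ratio of the 8 members was −0.04 for homozygous over wild-type, −0.13 for heterozygous over wild-type and 0.05 for homozygous over heterozygous, beside 0.08, 0.06 and 0.01 over the 4261 genes.

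The 5 AP2 genes summed to 1220 CPM (1185 to 1256), 1237 (1216 to 1259) and 1279 (1251 to 1308) in the wild-type, heterozygous and homozygous libraries. The homozygous over wild-type log2 ratio was 0.07 (0.02 to 0.12) and the heterozygous one 0.02 (−0.03 to 0.07). The first of these was 0.01 with TMM scaling or with the neuronal genes as denominator, so its size depends on the scaling. In outside cells the AP2 sum was higher than wild-type by 0.16 (0.10 to 0.22) and 0.15 (0.10 to 0.20) in the homozygous and heterozygous libraries, and in empty droplets (those with 100 to 499 UMIs) by 0.23 and 0.16. Excitatory neuron-like cells, with a high AP2 sum, were 5.92% of wild-type, 30.8% of heterozygous and 17.2% of homozygous outside cells, and astrocyte and radial glia-like cells, with a low one, were 15.4%, 7.08% and 11.0%, and their part in the outside ratios was not tested. The 3 clathrin genes summed to 654 (629 to 681), 607 (592 to 622) and 623 CPM (604 to 643), with log2 ratios of −0.07 (−0.14 to 0.00) for homozygous and −0.11 (−0.18 to −0.04) for heterozygous over wild-type. The clathrin sum had ratios of −0.10 (−0.18 to −0.02) and −0.01 (−0.07 to 0.05) in outside cells, and in empty droplets it was at 0.02 and 0.13, on the other side of 0 from typical cells.

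Among the AP2 subunits, *Ap2m1* and *Ap2b1* differed from wild-type in opposite directions. *Ap2m1* had a log2 ratio of 0.26 (0.18 to 0.34) for homozygous and 0.21 (0.13 to 0.28) for heterozygous over wild-type typical cells, an excess of 19.5% and 15.6%. It was higher than wild-type in outside cells too, by 0.23 (0.14 to 0.32) and 0.24 (0.17 to 0.32), and in empty droplets by 0.48 and 0.41 on the log2 scale. In atypical cells the ratios were 0.05 (−0.19 to 0.29) and 0.20 (−0.14 to 0.53), with intervals that include 0. On the scale of mean raw UMIs per cell, where the median gene was at −0.34, the homozygous ratio of *Ap2m1* was −0.16.

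*Ap2b1*, whose product binds clathrin through a flexible hinge, was the member furthest below wild-type. Its level in typical cells was 114 CPM (104 to 126), 86.3 (80.7 to 92.1) and 91.5 (84.1 to 99.5) in the wild-type, heterozygous and homozygous libraries, so the wild-type interval lay above both others. The log2 ratio to wild-type was −0.41 (−0.58 to −0.24) and −0.32 (−0.51 to −0.14) in the heterozygous and homozygous libraries, and both were below 0 under each of the 9 alternatives run. The homozygous ratio of 0.80 lay at the edge of the rule of size, and with the atypical cells added it was −0.27 and no longer past it. In cells with at least 1000 and under 2000 UMIs the ratios were further from 0, at −0.68 heterozygous and −0.51 homozygous. In outside cells *Ap2b1* was at 87.3 wild-type, 85.2 heterozygous and 99.6 CPM homozygous, with intervals of both ratios to wild-type that include 0. In empty droplets the ratios were −0.27 heterozygous and −0.11 homozygous.

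*Ap2s1*, which the study names among the autism genes regulated by *Tbr1* in heterozygous or homozygous mutants, was close to level as a share of UMIs. Its log2 ratio was −0.10 (−0.20 to −0.01) for homozygous and −0.08 (−0.16 to 0.01) for heterozygous over wild-type typical cells. Both ratios were below 0 under each of the 9 alternatives run. The study made its calls on UMI counts that were not normalized, so a share of UMIs is an unlike measure. Mean raw *Ap2s1* UMIs per typical cell were 0.840, 0.751 and 0.584 in the wild-type, heterozygous and homozygous libraries. On that scale, where the median gene was at −0.34, the homozygous *Ap2s1* ratio was −0.525. In empty droplets the *Ap2s1* ratios were −0.02 and −0.03. The alpha subunit gene *Ap2a1* had 64.0, 64.1 and 64.7 CPM in wild-type, heterozygous and homozygous typical cells, the most even of the 8, with log2 ratios to wild-type whose intervals run from −0.22 to 0.26 (homozygous) and from −0.21 to 0.22 (heterozygous). In outside cells it was higher in the homozygous library, by 0.39 (0.16 to 0.62). The other alpha gene, *Ap2a2*, had 123 wild-type, 109 heterozygous and 133 CPM homozygous, and the heterozygous cells were lower than both others, with a homozygous over heterozygous log2 ratio of 0.29 (0.16 to 0.42). That *Ap2a2* ratio was 0.25 (0.04 to 0.47) in outside cells and 0.30 in empty droplets, so it was not particular to typical cells. *Ap2a1* made up 34.3% (30.8 to 38.0), 37.1% (34.9 to 39.4) and 32.8% (30.1 to 35.5) of alpha subunit UMIs in wild-type, heterozygous and homozygous typical cells.

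**Figure D2:**
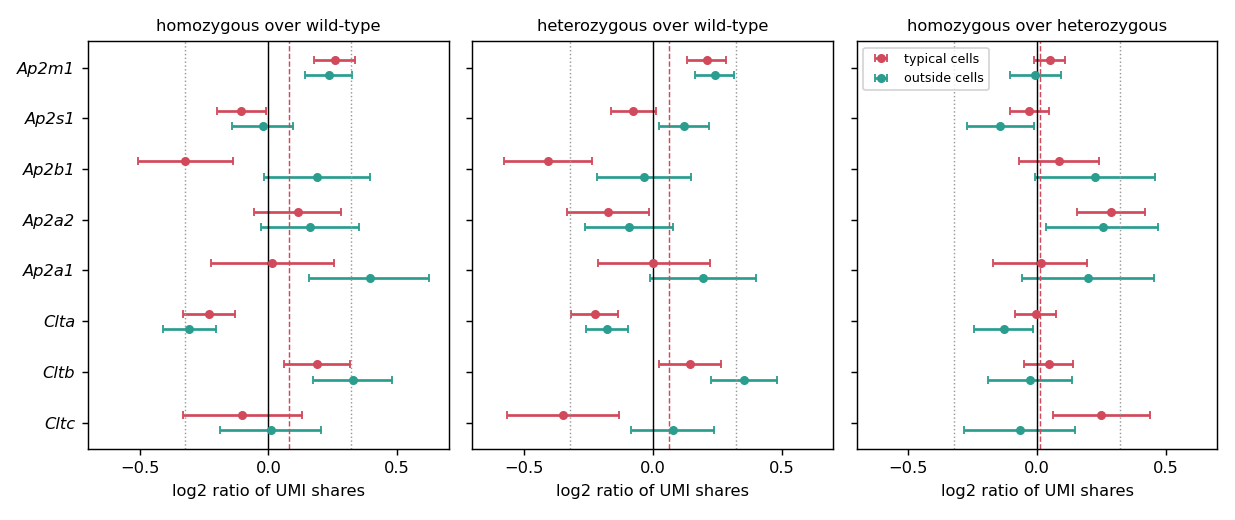
Log2 ratios of UMI shares between genotypes for each member, in typical cells (red) and outside cells (teal), with exact conditional binomial 95% intervals. Dotted lines mark 25% higher and 20% lower, and the dashed line is the median of 4261 genes in typical cells. *Ap2m1* and *Cltb* lie above 0 and *Clta* below 0 in both mutant libraries and both classes, and *Ap2b1* lies below 0 in typical cells.

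The clathrin light chain genes differed from wild-type in opposite directions. Light chains bind the heavy chain and tune the assembly of the lattice, and *Clta* and *Cltb* encode the alternative forms. *Clta* was at 376 CPM in wild-type and at 322 (311 to 333) and 321 CPM (307 to 335) in heterozygous and homozygous typical cells, log2 ratios of −0.22 (−0.32 to −0.13) and −0.23 (−0.33 to −0.13). *Cltb* was at 208 (194 to 224), 230 (221 to 240) and 238 CPM (226 to 250), with log2 ratios of 0.14 (0.03 to 0.26) and 0.19 (0.06 to 0.32). In outside cells *Cltb* was higher by 0.33 (0.17 to 0.48) and *Clta* lower (log2 ratio −0.31, interval −0.41 to −0.20) for homozygous over wild-type. The homozygous *Cltb* ratio in typical cells was −0.23 on the scale of mean raw UMIs per cell.

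The share of *Clta* among light chain UMIs needs no scaling between libraries. In typical cells it was 64.4% (62.3 to 66.4, from 1381 *Clta* and 765 *Cltb* UMIs) in wild-type, 58.3% (57.0 to 59.6, from 3354 and 2400) in heterozygous and 57.5% (55.8 to 59.1, from 1948 and 1443) in homozygous cells, and the intervals of the mutant libraries overlapped each other but not that of wild-type. The wild-type share was the highest of the 3 also in atypical cells (66.2%, 47.4% and 53.5%), in outside cells (75.4%, 68.0% and 66.4%) and in empty droplets (68.0%, 59.6% and 60.8%). The lower share in the mutant libraries was thus not particular to the typical neurons. Microglia-like cells, the named type with the highest *Clta*, made up 4.49% of wild-type, 9.66% of heterozygous and 7.11% of homozygous outside cells, while the microglia marker list in all outside cells was at 1591, 1755 and 1532 CPM. The unnamed outside cells, which include a cluster led by the macrophage genes *Pf4* and *Mrc1* (79, 19 and 20 cells) and most of one led by both microglia and excitatory neuron genes (*Crybb1*, *Aif1* and *Nrgn*, in all 72, 220 and 127 cells), had *Clta* at 677, 482 and 429 CPM in the same order. In typical cells microglia markers were at 65.7 CPM in wild-type and 41.0 and 44.5 CPM in heterozygous and homozygous cells. The part of these cells and markers in the share was not tested, and with the profile of empty droplets subtracted it was 63.5%, 58.1% and 56.8%.

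**Figure D3:**
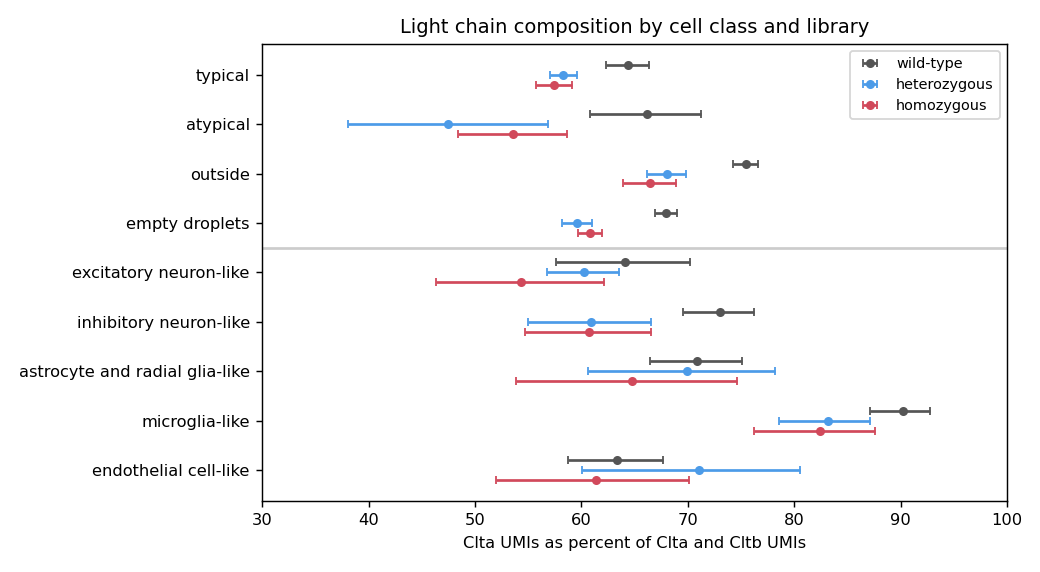
*Clta* UMIs as a percentage of *Clta* and *Cltb* UMIs by cell class (above the line) and in clusters of outside cells named from markers (below), with exact binomial 95% intervals, 1 library per genotype. The wild-type share is the highest in each class, at 64.4% in typical cells, and among the clusters drawn it is not the highest in the endothelial cell-like one. Of the types not drawn, it is not the highest in oligodendrocyte lineage-like cells (69.1% wild-type and 72.0% heterozygous).

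The heavy chain gene *Cltc* was at 69.7 CPM (61.5 to 78.8), 54.7 (50.3 to 59.4) and 65.0 (58.8 to 71.8) in the wild-type, heterozygous and homozygous libraries. The heterozygous typical cells were lower than both others, with a log2 ratio of −0.35 (−0.57 to −0.13) to wild-type, and the homozygous ratio was −0.10 (−0.33 to 0.13). In outside cells *Cltc* was even across genotypes, at 106, 112 and 107 CPM.

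Within each library, typical neurons were compared with the cells outside the neuronal table, whose makeup differs between libraries. Across 5184 genes, 7.12% were higher and 36% lower by that rule in typical cells of all 3 libraries, and of the members 0 were higher and 1, *Cltc*, was lower. *Cltc* had log2 ratios of −0.60 (−0.81 to −0.40) in wild-type, −1.03 (−1.21 to −0.85) in heterozygous and −0.72 (−0.94 to −0.49) in homozygous libraries. *Clta* was also lower in typical cells in each library (log2 ratios −0.26, −0.30 and −0.18), with intervals below 0. *Cltb* was higher by 0.51, 0.30 and 0.37, *Ap2s1* by 0.49, 0.29 and 0.40, *Ap2m1* by 0.23, 0.20 and 0.25 and *Ap2a2* by 0.26, 0.18 and 0.21, all with intervals above 0, against a median over all genes of −0.40, −0.18 and −0.28. These are ratios of shares of UMIs, and typical cells held fewer UMIs than outside cells (a mean of 2064 against 2999 in wild-type, 1945 against 3089 in heterozygous and 1544 against 2251 in homozygous cells). On the scale of mean raw UMIs per cell, which moves every gene by −0.54, −0.67 and −0.54 in these libraries, all 8 members were below 0 in all 3 libraries. *Ap2b1* and *Ap2a1* had no direction shared by the 3 libraries. As a share of UMIs the AP2 genes together were higher in typical cells, by 0.32 (0.27 to 0.37), 0.19 (0.14 to 0.24) and 0.22 (0.16 to 0.29), and the clathrin genes were at −0.10 (−0.17 to −0.03), −0.20 (−0.26 to −0.13) and −0.07 (−0.15 to 0.02).

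**Figure D4:**
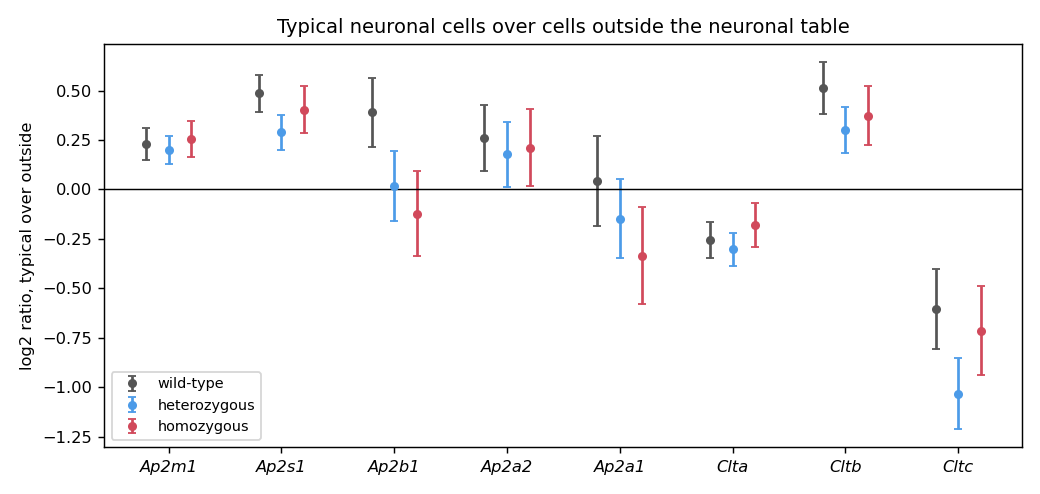
Log2 ratio of UMI shares, typical neuronal cells over outside cells of the same library, with exact conditional binomial 95% intervals. *Ap2m1*, *Ap2s1*, *Ap2a2* and *Cltb* lie above 0 and *Clta* and *Cltc* below 0 in all 3 libraries.

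Against the atypical neuronal cells, typical cells had the AP2 genes together at log2 ratios of 0.27 (0.15 to 0.39) in wild-type, 0.42 (0.22 to 0.63) in heterozygous and 0.41 (0.30 to 0.52) in homozygous libraries. *Ap2m1* was at 0.32, 0.33 and 0.53 and *Ap2s1* at 0.24, 0.48 and 0.30, with intervals above 0 in each. No member passed the rule in all 3 libraries, where 7.92% of 4278 genes were higher and 3.95% lower. Striatal projection neuron markers were at 278 to 510 CPM in atypical against 24.5 to 42.6 CPM in typical cells, and the part of other cell types in these ratios was not tested.

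The 5453 outside cells were clustered without the members, and all but 1517 were named from markers. In microglia-like cells (348 cells) *Clta* reached 981 CPM (916 to 1050), above the range of 235 to 394 CPM in the other named types. It was at 1193 CPM (1081 to 1314), 776 (685 to 876) and 956 (811 to 1119) in the wild-type, heterozygous and homozygous libraries, and made up 90.2% (87.1 to 92.8), 83.2% (78.6 to 87.1) and 82.5% (76.2 to 87.6) of their light chain UMIs. At the finer resolution these cells form a cluster led by *Aif1* and *Crybb1* (55 wild-type, 88 heterozygous and 50 homozygous cells) and one led by *Spp1* and *P2ry12* (74, 47 and 34), so different clusters hold most of the type in the wild-type and mutant libraries. Clathrin genes exceeded AP2 genes in these cells, with 1255 against 984 CPM over the 3 libraries, but not with names from the coarser clustering alone (766 cells, 990 against 1065 CPM), while in the other named types the AP2 sum was the larger. The member with the most UMIs was *Clta* in microglia-like cells and *Ap2m1* in the other named types, libraries summed. In wild-type endothelial cell-like cells *Clta* had 295 UMIs and *Ap2m1* 290, and in heterozygous mural cell-like cells each had 18.

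In the oligodendrocyte lineage-like cells (280 cells) the alpha subunit genes took another order. *Ap2a1* was at 155 CPM (130 to 182) and *Ap2a2* at 92.0 CPM (73.5 to 114), whereas *Ap2a2* was above *Ap2a1* in the other named types with libraries summed. That order did not hold in each library: *Ap2a1* was the higher in heterozygous endothelial cell-like, microglia-like and astrocyte and radial glia-like cells and in homozygous mural cell-like cells, and the summed endothelial values of 84.8 and 88.6 CPM have overlapping intervals. The *Ap2a1* level was 134 CPM (108 to 163), 218 (113 to 381) and 232 (162 to 323) in the wild-type, heterozygous and homozygous libraries, the heterozygous value resting on 13 cells and 12 UMIs. A cluster led by *Pdgfra* held 162 wild-type, 7 heterozygous and 22 homozygous cells of the finer clustering, so the mixture within the type differed between libraries, and its part was not tested.

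With libraries summed, inhibitory neuron-like cells (897 cells) had an AP2 sum of 1217 CPM (1172 to 1264) and excitatory neuron-like cells (804 cells) one of 1180 CPM (1137 to 1224), the highest of the named types with intervals that overlap, and astrocyte and radial glia-like cells (670 cells) had the lowest at 735 CPM (697 to 774). These places did not hold in each library. The 27 homozygous cycling cell-like cells had 701 CPM, against 815 CPM in astrocyte and radial glia-like ones. The 13 heterozygous oligodendrocyte lineage-like cells had 1180 CPM, against 1165 CPM in excitatory neuron-like ones. By library the excitatory neuron-like cells had 1197, 1165 and 1225 CPM in wild-type, heterozygous and homozygous order. In the wild-type library they were above the inhibitory ones, with intervals that overlap (1098 to 1303 against 1060 to 1172). A cluster led by *Nrgn* and *Bhlhe22* held 45, 270 and 28 of the excitatory cells of the finer clustering. The inhibitory neuron-like cells had 1115 wild-type (1060 to 1172), 1324 heterozygous (1218 to 1436) and 1453 CPM homozygous (1337 to 1576). Their *Clta* share of light chains was 73.0% (69.6 to 76.2), 60.9% (55.0 to 66.6) and 60.7% (54.7 to 66.5). A cluster led by *Igfbpl1* and *Sp8* held 568 of the 609 wild-type, 79 of the 143 heterozygous and 86 of the 145 homozygous cells of this type, and the others were in clusters led by *Sst* and *Npy*, so these values set unlike mixtures side by side and the part of the mixture was not tested. Endothelial cell-like cells (350 cells) had *Ap2b1* at 124 (106 to 144) and *Cltc* at 128 CPM (109 to 148) with libraries summed, the highest of the named types. For *Ap2b1* the interval overlaps those of excitatory (100 to 128) and inhibitory neuron-like cells (88.1 to 115). For *Cltc* it overlaps those of microglia-like (97.1 to 145) and inhibitory neuron-like cells (89.4 to 116.5). It also overlaps those of mural cell-like (63.3 to 132) and meningeal fibroblast-like cells (63.65 to 118.5). The order did not hold in each library. Wild-type *Ap2b1* was at 121 CPM in endothelial cell-like and 131 CPM in excitatory neuron-like cells. Homozygous *Cltc* was at 100.5 CPM in endothelial cell-like and 146 CPM in inhibitory neuron-like cells. The 1517 unnamed cells had *Clta* at 577 and *Cltc* at 150 CPM.

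**Figure D5:**
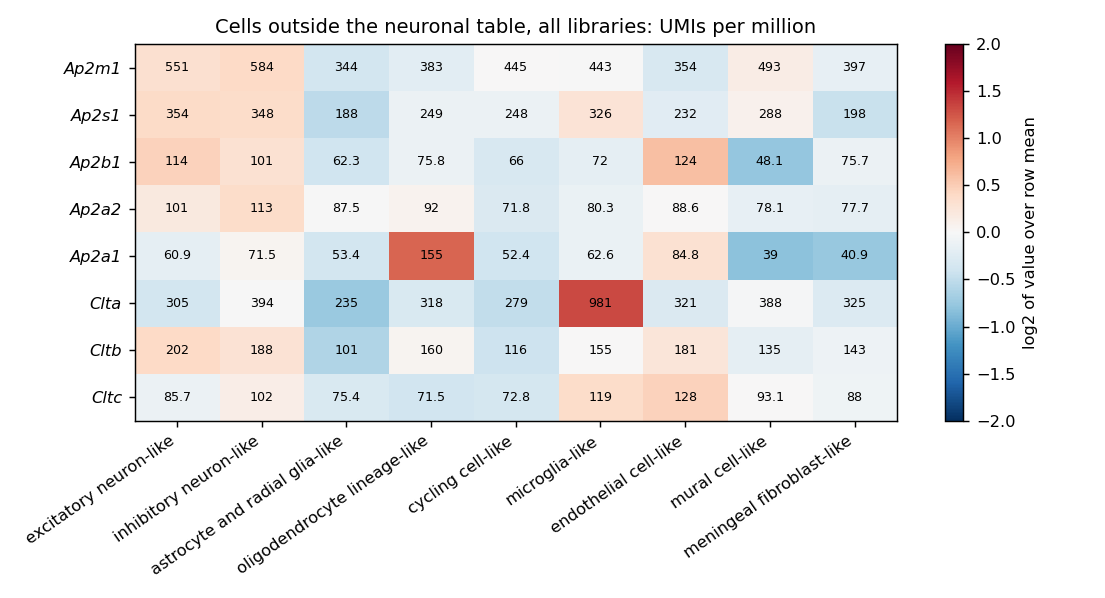
Levels of the members (CPM, printed in each cell) in the named clusters of outside cells, summed over the 3 libraries, with color for the log2 of the value over the mean of the row. *Clta* in microglia-like cells (981) and *Ap2a1* in oligodendrocyte lineage-like cells (155) stand above the rest of their rows.

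The other genes of the pathway were taken from lists of its steps, counting genes that averaged 20 CPM or more in typical cells. Of early adaptors and cargo-selecting proteins, 9 of 20 reached that minimum, and 2 were higher and 1 lower by the rule of size in homozygous over wild-type cells, beside 17.2% and 8.5% of all genes, with a median log2 ratio of 0.18 against 0.08 over all genes. The heterozygous over wild-type comparison had 2 higher and 0 lower (17.1% and 9.5% of all genes), and the homozygous over heterozygous one 0 higher and 1 lower (4.04% and 2.68%). Their median log2 ratios were 0.08 and 0.08, against 0.06 and 0.01 over all genes. The lower gene was the scaffold gene *Itsn1* (intersectin 1), named after its values were seen, at 31.9, 26.5 and 19.6 CPM, a homozygous over wild-type log2 ratio of −0.70 (−1.08 to −0.32). Epsin 1 (*Epn1*), which bends the membrane under the coat, was at 314, 339 and 312 CPM in wild-type, heterozygous and homozygous cells. *Snap91*, the neuronal clathrin assembly protein AP180, was at 54.2, 62.2 and 65.9 CPM. *Eps15*, a scaffold of the early coat, was at 26.4, 41.1 and 37.5 CPM, log2 ratios to wild-type of 0.64 (0.31 to 0.97) in heterozygous and 0.51 (0.16 to 0.86) in homozygous cells, each further from 0 than the ratio of any AP2 gene in the same comparison.

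Of the genes for membrane curvature and fission, 7 of 12 reached the minimum, with 1 higher and 2 lower in homozygous and 3 higher and 1 lower in heterozygous over wild-type cells, beside 17.2% and 8.5% of all genes in the homozygous and 17.1% and 9.5% in the heterozygous comparison. Endophilin A3 (*Sh3gl3*) was at 62.4, 78.1 and 71.5 CPM and endophilin A1 (*Sh3gl2*) at 45.8, 56.0 and 47.7 CPM. Amphiphysin 2 (*Bin1*) was at 47.1, 67.3 and 63.5 CPM, log2 ratios of 0.51 (0.27 to 0.76) and 0.43 (0.17 to 0.70) for heterozygous and homozygous over wild-type. Its partner amphiphysin (*Amph*), named after its values were seen, was lower in both mutant libraries with 31.9, 22.7 and 22.4 CPM, log2 ratios of −0.49 (−0.82 to −0.16) and −0.51 (−0.88 to −0.14).

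For uncoating, 3 of 6 genes reached the minimum and none passed the rule in either comparison with wild-type, where 17.2% and 17.1% of all genes were higher and 8.5% and 9.5% lower, too few genes to set against those shares. The chaperone *Hspa8*, which strips clathrin from vesicles, was even at 720, 716 and 727 CPM, the phosphatase gene *Inpp5f* was at 64.3, 75.6 and 79.0 CPM, and the neuronal auxilin *Dnajc6* was at 31.6, 29.8 and 34.4 CPM. Of the kinases and phosphoinositide enzymes, 1 of 7 reached it, the kinase *Pip5k1c* at 33.0, 32.0 and 35.7 CPM, while the AP2 kinase genes *Aak1* and *Gak* were at 8.89 to 16.4 CPM, with *Aak1* below wild-type at log2 ratios of −0.62 (−1.08 to −0.14) and −0.88 (−1.44 to −0.32) in the heterozygous and homozygous libraries. None of the 6 receptors carried by clathrin vesicles did, and *Lrp1*, the highest, was at 17.1 to 21.5 CPM, followed by *Lrp8* and *Tfrc*.

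Of the other adaptor complexes, 8 of 23 genes reached the minimum, with *Ap1m2* not in the table. The AP3 sigma subunit gene *Ap3s1*, of the complex that sorts cargo from endosomes, was the 1 gene past the rule, and higher, in each comparison with wild-type (1 of the 8, beside 17.2% and 17.1% of all genes), with a wild-type level of 230 CPM, a heterozygous one of 369 and a homozygous one of 318 CPM. Its log2 ratios were 0.68 (0.57 to 0.79) and 0.47 (0.35 to 0.58). The AP1 sigma gene *Ap1s1* was at 208, 212 and 227 CPM and the AP4 sigma gene *Ap4s1* at 60.8, 69.2 and 69.8 CPM.

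Over the 9 library and class values and 1292 genes averaging 100 CPM or more, the genes most like *Ap2s1* in log2 level were the stathmin gene *Stmn3* (Pearson r 0.98), *Hist3h2ba* (0.96) and *Anapc11* (0.95). Those most like *Clta* were *Mlc1* (0.96), *Phb2* (0.95) and *Tmsb4x* (0.94). These points share libraries and the makeup of the classes, and the correlations are a description. Among the members the lowest value was that of *Clta* with *Cltb* (r −0.82) and the highest that of *Ap2a2* with *Ap2b1* (r 0.82). Both *Ap2a2* and *Ap2b1* were lowest in heterozygous atypical cells, at 37.0 and 60.1 CPM from only 8 and 13 UMIs. How far their r rests on that point was not tested.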

How the data were processed

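Per the labels and the methods of the study, reads were aligned to mm10 and UMIs counted by the authors with Cell Ranger 2.0.1, and the deposited matrices hold raw counts of every barcode. The deposited table of filtered cells also holds raw counts (17396 cells, 14933 genes), and member counts were identical in the matrices for all 3 libraries. Its cell list gives mitochondrial, ribosomal and pseudogene content as a fraction deposited by the authors. The deposited neuronal expression table is on a natural log scale, log(1 + UMIs per 10000) as normalized by the authors, and only its gene names were used. The class of a cell came from the deposited lists of filtered and neuronal cells. A scaled table (deposited score per gene and cell) was not used for values. Total counts were 55057757 wild-type, 34906481 heterozygous and 33322518 homozygous over all barcodes, and 3670646, 10418228 and 6074494 in typical cells.

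UMIs were summed per library and class (Python 3.11.15, pandas 2.3.3, scipy 1.17.1) and given per 1000000 UMIs. Ratios and intervals were tested on simulated Poisson counts without spread between cells or libraries, so that test covers counting error only. A gene passed the rule of size when more than 25% higher or more than 20% lower, counted over genes averaging 20 CPM or more. The named genes are the 8 members, the 3 genes of each pathway list with the most UMIs, the 3 genes most like *Ap2s1* and *Clta*, and *Tbr1*, with *Amph*, *Itsn1* and the leading genes of clusters added after their values were seen. The members and lists were chosen with earlier results of these data known. Outside cells were clustered without the members, with leidenalg 0.10.2 on a graph of shared nearest neighbors (20 principal components, 15 neighbors, resolution 0.6 and 1.2). A cell was named where both resolutions gave the same name from at least 3 markers, a step added after the data were seen. No doublet caller was run. Dropping the top 5% of typical cells by UMIs was 1 alternative, but it leaves doublets with fewer UMIs and any among the outside cells. Other alternatives were edgeR 4.0.16 TMM and DESeq2 1.42.0 size factors, the neuronal genes as denominator, mean raw UMIs per cell, the mean over cells, the atypical cells added, cells with at least 1000 and under 2000 UMIs, and subtraction of the profile of droplets with 100 to 499 UMIs at the largest share leaving no non-neuronal marker list below 0 (22.3%, 12.0% and 16.3% of wild-type, heterozygous and homozygous UMIs). Promoter sequences are from RefSeq. The study compared UMI counts of cells, not normalized, with MAST, which was not repeated.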

Additional observations from a re-analysis of the deposited data

How the results depend on the processing

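No paired analysis was possible because each genotype has 1 library, and for the same reason no library could be left out. The *Clta* share of light chains stayed within its counting interval under the 4 alternatives run for it. Of the 24 member ratios between genotypes, none left its interval under TMM, DESeq2 size factors, the neuronal denominator, the mean over cells, the atypical cells, the removal of cells with the most UMIs or the subtraction of the empty-droplet profile, 3 did in cells with at least 1000 and under 2000 UMIs (*Clta* at −0.345 homozygous and −0.357 heterozygous over wild-type, *Ap2b1* at −0.679 heterozygous over wild-type) and 18 on the scale of mean raw UMIs per cell. That last scale moved the median of all genes to −0.34 (homozygous over wild-type), −0.02 (heterozygous over wild-type) and −0.32 (homozygous over heterozygous). On it the AP2 sum was −0.35, −0.066 and −0.285 and the clathrin sum −0.49, −0.195 and −0.295 in the same order, and 5 members in place of 1 were lower past the rule of size in homozygous over wild-type and 2 in place of 0 in homozygous over heterozygous cells, where 52.4% and 49.7% of all genes were lower. It also put the typical over outside ratios of all 8 members below 0 in each library. Of those past the rule of size on shares of UMIs, it reversed *Ap2b1* (−0.15), *Ap2s1* (−0.051) and *Cltb* (−0.026) in the wild-type and *Ap2s1* (−0.14) and *Cltb* (−0.17) in the homozygous library. Of the 48 member ratios of typical over atypical or outside cells, 19 besides these 5 left their intervals on that scale. With the neuronal denominator 5 of the 48 left theirs and 0 were reversed. The AP2 sum for homozygous over wild-type was 0.014 with TMM and 0.011 with the neuronal denominator. In the cells limited by UMIs the heterozygous clathrin sum was −0.19 and 2 members were lower in homozygous over wild-type cells, where 10.1% of all genes were, and with the atypical cells 0 were, where 9.27% of all genes were. At 1.5-fold, 0 members were lower in homozygous and 0 in heterozygous over wild-type cells, where 1.95% and 2.39% of all genes were. The share of all genes past the rule of size also depends on the minimum level. Of 6 such shares, 4 changed by more than 1.5-fold with a minimum of 5 CPM and 1 with a minimum of 100 CPM. The cause was not tested. The restriction by UMIs for the *Clta* share and the naming of clusters by both resolutions were chosen after seeing the data. With resolution 0.6 alone the microglia-like cells had a *Clta* share of 80.1% in place of 86.4%, an AP2 sum of 1065 in place of 984 CPM and a clathrin sum of 990 in place of 1255 CPM. With resolution 1.2 alone the excitatory neuron-like cells had a *Clta* share of 63.1% in place of 60.2% and a clathrin sum of 629 in place of 592 CPM. Counts of 8 to 74 UMIs limit *Ap2a1*, *Ap2a2*, *Ap2b1* and *Cltc* in atypical cells.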
